A study of Drosophila melanogaster with 12 samples.

Results

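The genes described are those carried by the mitochondrial genome of Drosophila melanogaster. They were chosen by position alone, as every row of the count table placed on the mitochondrial sequence, which gave 37 of 17610 genes. They comprise 13 protein genes, 2 ribosomal RNA genes and 22 tRNA genes. RNA came from whole bodies of female flies of the Oregon strain, which all 4 groups share, kept for 3 days on cornmeal medium with a mixture of yeast and a green food dye. The control group received the mixture made with water, the cisplatin group (a platinum drug that binds DNA) a cisplatin solution, the TiO2 group a suspension of titanium dioxide nanoparticles, and the combination group both at once. Each substance was given at 50 µg per ml by the treatment protocol and at 50 mg per ml by the sample titles, so the dose itself is uncertain. Each group has 3 libraries. The labels used here give neither the age of the flies nor how many went into a library, so the p-values below measure the spread between libraries, which may be partly technical.

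The mitochondrial genome is a small circle present in many copies per cell, and it is transcribed from both strands into long precursors. The tRNAs that lie between most of its genes are cut out, which releases the messenger and ribosomal RNAs. The proteins are core subunits of respiratory complexes I, III, IV and V, while the remaining subunits and all the machinery that copies, transcribes and processes this genome are made from nuclear genes. Levels of the individual RNAs can therefore differ through processing and stability even where they share a precursor. These RNAs are abundant in tissues with heavy energy use, such as flight muscle. Libraries were made with a stranded mRNA kit, a type that captures RNA by its poly(A) tail. The recovery of an RNA with a short tail or none, such as a tRNA or a ribosomal RNA, is then not a measure of its amount in the fly.

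All 37 genes have the same coordinates and strand in assembly BDGP6.54 as in the count table. The large ribosomal RNA gene mt:lrRNA lies at positions 12735 to 14058 of the mitochondrial sequence and the small one, mt:srRNA, at 14131 to 14916, both on the minus strand. Of the protein genes, 9 lie on the plus strand and 4, mt:ND5, mt:ND4, mt:ND4L and mt:ND1, on the minus strand. The genes are packed so tightly that some share bases. mt:ATPase8 (positions 3907 to 4068) shares 7 bases with mt:ATPase6, mt:ATPase6 shares 1 base with mt:CoIII, mt:ND4 shares 1 base with mt:ND4L, and the tRNA genes for Trp and Cys overlap by 8 bases on opposite strands. Whether the counting used strand, and how it treated reads spanning neighbouring genes, is not given in the sources used here, so counts of these short neighbours are uncertain.

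Library totals ran from 26.8 M to 46.7 M counts (M for mega). The mitochondrial genes took 16.7%, 8.84% and 6.90% of all counts in control replicates 1, 2 and 3. The share was 6.20%, 8.39% and 7.53% in cisplatin, 7.36%, 7.68% and 6.81% in TiO2, and 7.51%, 12.4% and 9.45% in the combination. Control replicate 1 and combination replicate 2 thus stood highest, and every group overlapped every other. Group means were 10.8 ± 5.20% for the controls, 7.37 ± 1.10% for cisplatin, 7.28 ± 0.438% for TiO2 and 9.78 ± 2.45% for both substances (SD, n = 3). The groups accounted for 31.03% of the variance of the log2 share, and an exact permutation test, in which the 12 libraries were divided into 4 sets of 3 in every possible way, gave an adjusted p of 0.396 (Benjamini-Hochberg over the 7 ratio measures tested like this). In bulk RNA such as this, fewer cells of a type rich in mitochondria and less mitochondrial RNA per cell cannot be told apart.

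Some tissue markers were high in the libraries with a high share. The 10 muscle genes on the list used (Mhc, the myosin heavy chain, Act88F, the flight muscle actin, and 8 others, none at 0 in any library) summed to 36672, 24790 and 4926 CPM (counts scaled to a library of 1 M, after TMM adjustment of its size) in control replicates 1, 2 and 3. They summed to 3725, 45201 and 14583 CPM in the combination, while cisplatin ranged from 2984 to 7269 CPM and TiO2 from 5641 to 10638 CPM. The highest values therefore fell in the 2 libraries with the highest mitochondrial shares. The 5 eye genes, among them the rhodopsin gene ninaE, ran from 1079 to 2035 CPM in control and 1003 to 2164 CPM in the combination, against 788 to 957 CPM in cisplatin and 868 to 918 CPM with TiO2 alone. The 5 nervous system genes ran from 123 to 350 CPM in control and 171 to 698 CPM in the combination, against 108 to 164 CPM for cisplatin and 153 to 188 CPM for TiO2. The 6 ovarian germline genes measured, among them the oocyte determinant osk, were lowest in combination replicate 2, at 907 CPM, and reached at most 1908 CPM elsewhere. Combination replicate 2 also goes against its female label: 10 genes of male reproductive tract, testis and dosage compensation summed to 1049 CPM there, against 0.192 to 5.55 CPM in the other 11 libraries. Other lists did not follow the share. The 3 yolk protein genes ran from 10944 to 16324 CPM in control, from 16285 to 24066 CPM with cisplatin and from 9347 to 15626 CPM with both substances. The 5 follicle cell genes, which encode eggshell proteins, ran from 4068 to 9360 CPM in control, from 9398 to 13024 CPM with cisplatin and from 2263 to 5498 CPM with both substances. TiO2 replicate 1 stood apart from the other TiO2 libraries, at 6309 CPM of yolk protein transcripts against 20667 and 20653, and at 474 CPM of follicle cell transcripts against 9799 and 9465. No gene of the muscle, yolk, follicle cell or midgut lists was at 0 in any library. The part of these tissue differences in the mitochondrial share was not tested.

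**Figure D1:**
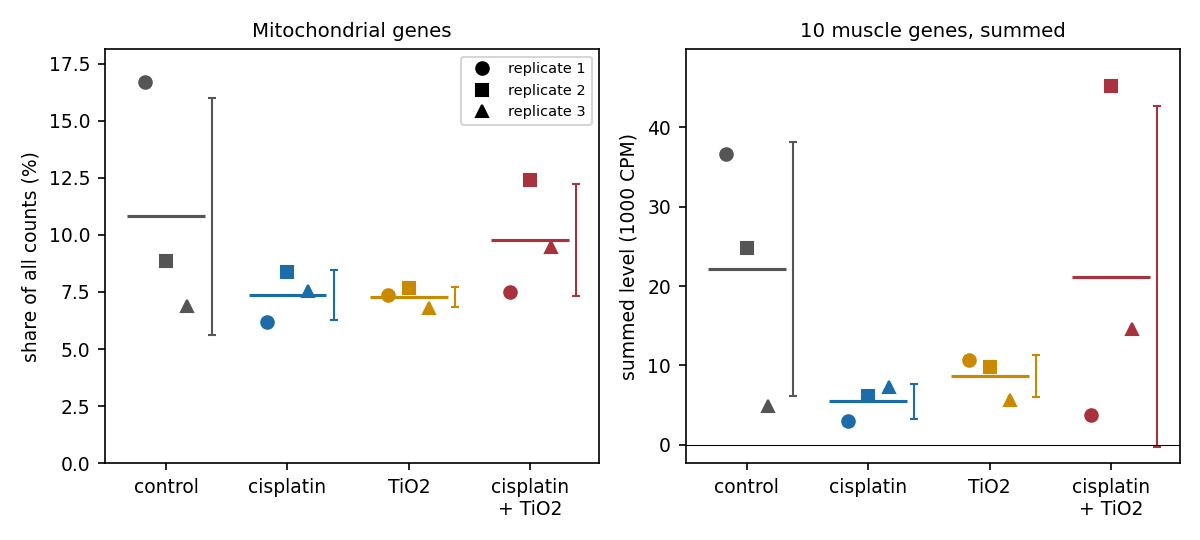
Share of all counts from mitochondrial genes in % (left) and summed level of 10 muscle genes in units of 1000 CPM (right), by group. Symbols are the 3 replicate libraries, horizontal lines are group means and vertical bars ± 1 SD. Control replicate 1 (16.7%) and combination replicate 2 (12.4%) stand highest in both panels.

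Within a library the 13 protein genes and 2 ribosomal RNAs spanned more than 3 orders of magnitude per length. The ribosomal RNA mt:lrRNA, part of the large subunit of the mitochondrial ribosome, was the highest at a mean of 36712 CPM per kb of gene over the 12 libraries (lowest 24587, highest 72472). The cytochrome c oxidase subunits mt:CoIII and mt:CoI followed at 12577 and 8963 CPM per kb. Each of these 3 genes stood above the next in 12 of 12 libraries.

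The middle of the order held the cytochrome b gene mt:Cyt-b, the only complex III subunit encoded here, at 5481 CPM per kb, the ATP synthase subunit mt:ATPase6 at 4917, and the oxidase subunit mt:CoII at 4191. mt:Cyt-b exceeded mt:ATPase6 in 10 of 12 libraries and mt:ATPase6 exceeded mt:CoII in 11. The complex I subunits came lower, from mt:ND1 at 1913 CPM per kb through mt:ND4 at 943, mt:ND5 at 785 and mt:ND3 at 541 to mt:ND4L at 158. mt:ND2, at 81.5 CPM per kb, and the small ATP synthase subunit mt:ATPase8, at 78.7, could not be ordered, since mt:ND2 was the higher in 7 of 12 libraries. mt:srRNA, the RNA of the small ribosomal subunit, was recovered at 62.7 CPM per kb and lay below mt:ATPase8 in 6 of 12 libraries. The complex I subunit mt:ND6 was the lowest at 11.8 CPM per kb. Ranking by counts without length exchanged mt:CoIII with mt:CoI and mt:ND4 with mt:ND5, and moved mt:srRNA from 14th to the 12th place.

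**Figure D2:**
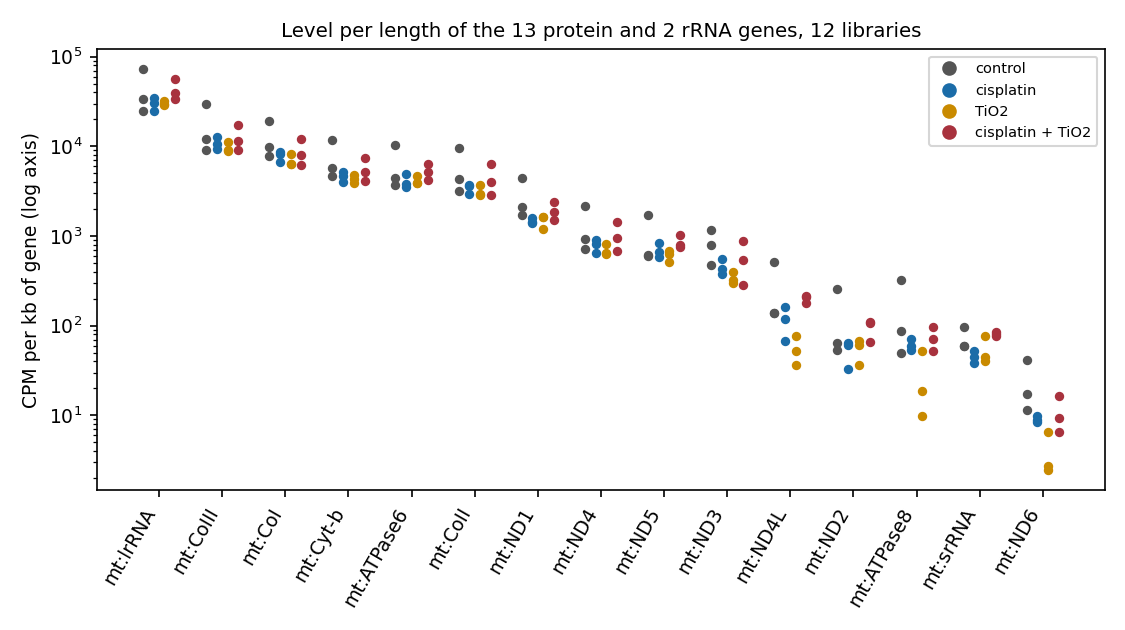
Level per length of the 13 protein and 2 ribosomal RNA genes, as CPM per kb on a log axis, with each point 1 of 12 libraries coloured by group. The means run from 36712 for mt:lrRNA to 11.8 for mt:ND6, and the TiO2 points of mt:ND4L, mt:ATPase8 and mt:ND6 reach below those of the other groups.

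The messenger pool kept the same order of complexes in all 12 libraries, but its complex V share was higher with TiO2 than in control. Complex IV transcripts made up 62.3% to 67.3% of mitochondrial mRNA counts over the 12 libraries, complex III 14.8% to 16.7%, complex I 10.5% to 12.8% and complex V 7.18% to 9.49%. The complex V share spanned 7.18% to 7.78% among controls and 8.68% to 8.98% among TiO2 libraries, without overlap. Cisplatin libraries spanned 7.26% to 8.47% and those given both substances 7.73% to 9.49%, each overlapping the controls. Group differences of the complex V share were not tested. The groups accounted for 43.79% of the variance of the complex I over complex IV ratio (exact permutation test, adjusted p = 0.396). They accounted for 34.42% of the variance of minus-strand over plus-strand mRNA (adjusted p = 0.396, exact permutation test) and 34.38% of that of mitochondrial mRNA over all nuclear genes (adjusted p = 0.396, exact permutation test). None of these 3 measures separated the groups beyond the spread between libraries.

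The tRNAs were barely recovered. Together the 22 genes had 24 to 205 counts in a library, and the 205 were in control replicate 1. The 3 with the highest mean count were the tRNA genes for Ile (GAT anticodon, 2 to 89 counts), Tyr (GTA, 4 to 56 counts) and Leu (TAA, 2 to 11 counts). The tRNA genes for Glu, Phe, His, Thr and Val, and those for Ser (TGA) and Leu (TAG), had 0 counts in all 12 libraries, which allows up to 3 counts in each. The tRNA over mRNA ratio had 60.97% of its variance between groups (exact permutation p = 0.0349, adjusted p = 0.122), so the test did not pass after adjustment. There were 82.7, 47.1 and 38.7 tRNA counts per M mitochondrial mRNA counts in control and 32.5, 18.5 and 26.3 with cisplatin. TiO2 libraries had 23.3, 27.0 and 29.9, and those of the combination 24.4, 42.2 and 38.1. Both single treatments lay below all controls, whereas the combination overlapped them.

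The balance of ribosomal RNA to messenger RNA was the one of the 7 measures that separated the groups. Virtually all of this ribosomal RNA was mt:lrRNA. The ratio of ribosomal to messenger counts was 1.06, 1.06 and 0.985 in the controls and 1.09, 1.18 and 1.12 in cisplatin. It was 1.33, 1.17 and 1.27 in TiO2 and 1.49, 1.35 and 1.38 in the combination. Every treated library lay above every control, every combination library lay above all other libraries, and cisplatin and TiO2 overlapped each other.

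The mean ratio was 1.03 ± 0.0436 for the controls, 1.13 ± 0.0453 for cisplatin, 1.26 ± 0.0840 for TiO2 and 1.41 ± 0.0774 for both substances (SD, n = 3). The groups accounted for 87.81% of the variance of its log2 value. Only 2 of all possible divisions, the true one included, gave a share as large (exact permutation p = 0.00013, adjusted p = 0.000909 over the 7 measures). As a rough scale for this share, the median of the 11060 tested genes had 34.82% of the variance of its log2 CPM between groups. The 17 tested mitochondrial genes ran from 22.21% to 70.49%, and 11 of all tested genes, or 0.0995%, reached the share of the ratio. Those values are levels of single genes, whereas the ratio is taken within a library, so the measures are unlike.

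Against control, the log2 ratio differed by 0.12 ± 0.0487 for cisplatin, 0.28 ± 0.0666 for TiO2 and 0.44 ± 0.0576 for both (difference ± SE). The combination exceeded cisplatin by 0.32 ± 0.0563 and TiO2 by 0.16 ± 0.0723. For each of these 5 pairs the ranges did not overlap and the two-sided exact permutation p was 0.1, the smallest that 3 against 3 libraries allow. Cisplatin was 0.15 ± 0.0654 below TiO2, with overlapping ranges (log2 difference -0.15, exact permutation p = 0.2).

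Tissue markers differed between the same libraries. Control replicates 1 and 3 had 36672 and 4926 CPM of muscle transcripts and ratios of 1.06 and 0.985, while combination replicates 1 and 2 had 3725 and 45201 CPM and ratios of 1.49 and 1.35. The 6 midgut genes, which include trypsin and amylase genes, summed to 2504, 3800.0 and 3623 CPM in the controls and to 2561, 2186 and 2179 CPM with cisplatin. They summed to 1242, 2579 and 2305 CPM with TiO2 and to 1542, 1656 and 1297 CPM with both substances. The group means of the midgut genes, 3309, 2309, 2042 and 1499 CPM, fell in the order in which those of the ratio rose. Within groups the order was mixed. The library with the highest ratio had the lowest midgut value in TiO2, the highest in control and the middle one in cisplatin and the combination. The part of tissue make-up in the ratio was not tested. With control replicate 1 and combination replicate 2 both left out, 87.78% of the variance lay between groups (exact permutation test, adjusted p = 0.0133). With only the 4 minus-strand messengers in the denominator, a choice made after the values were seen, 73.56% lay between groups and the test no longer passed (exact permutation test, adjusted p = 0.0614). Chosen in the same way, plus-strand messengers alone gave 87.52% (exact permutation test, adjusted p = 0.000909). The messengers without mt:CoI and mt:CoIII gave 86.49% (exact permutation test, adjusted p = 0.00182). Counts for genes of RNAs without a poly(A) tail were low in every library. Nuclear ribosomal RNA genes summed to at most 0.403 CPM, nuclear tRNA genes to at most 2.44 CPM and histone genes to at most 8.09 CPM. Of the 113 nuclear ribosomal RNA genes, 110 to 112 were at 0 in each library. How reads matching several gene copies were counted is not given in the sources used here. These sums therefore need not measure what poly(A) capture left. The snRNA, 7SL and 7SK genes ran from 4.28 to 13.1 CPM in control, from 5.01 to 13.6 CPM with cisplatin, from 4.39 to 14.9 CPM with TiO2 and from 2.68 to 15.4 CPM with both. The part of tail capture in the ratio was not tested.

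**Figure D3:**
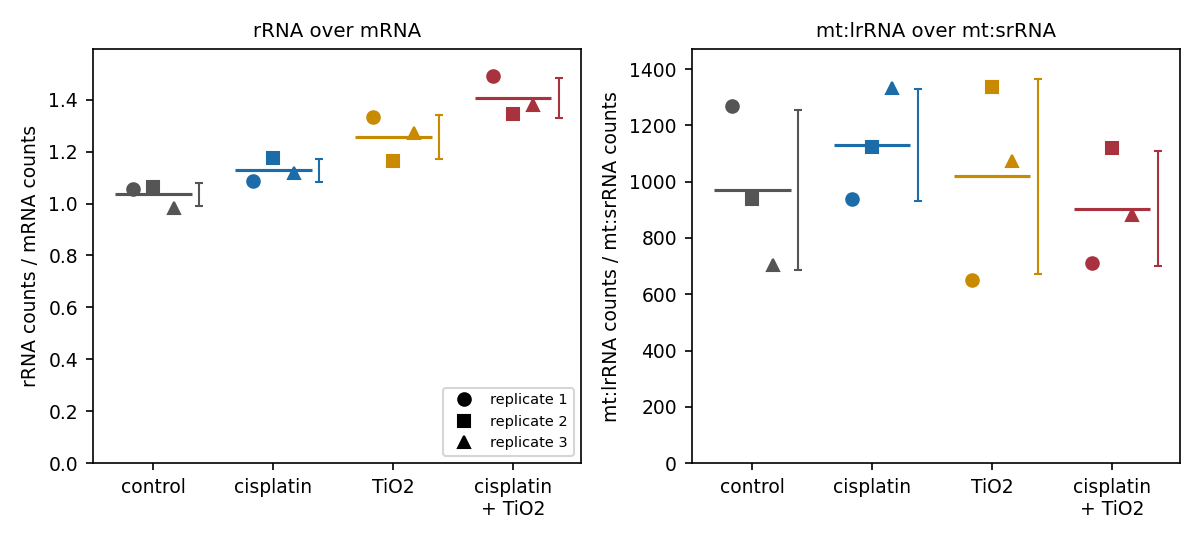
Ratio of mitochondrial ribosomal to messenger RNA counts (left) and of mt:lrRNA to mt:srRNA counts (right), by group. Symbols are replicate libraries, horizontal lines group means and vertical bars ± 1 SD. The left ratio runs from 0.985 to 1.06 in control and from 1.35 to 1.49 in the combination, whereas the right one overlaps between all groups.

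The 2 ribosomal RNAs did not share a stable proportion. There were 649 to 1335 mt:lrRNA counts for each mt:srRNA count, and the groups accounted for 12.37% of the variance of that ratio (exact permutation test, adjusted p = 0.755). Because mt:lrRNA made up virtually all ribosomal counts, the separation above is one of mt:lrRNA from the messengers. Whether mt:srRNA also separated from the messengers was not tested.

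The messengers were also set against mt:lrRNA one by one. With cisplatin, 12 of 13 messengers had a mean count per 1000 mt:lrRNA counts below the control mean. All 13 did so with TiO2, and all 13 with both substances. These comparisons share the control libraries and the division by mt:lrRNA. They also take apart the ratio already seen to differ, so the messengers are not independent evidence of it. The range lay wholly below the control range for only 4 of 13 messengers with cisplatin, against 10 with TiO2 and 10 with both substances. The median messenger stood at 88.4%, 79.2% and 75.3% of its control mean, in that order. The oxidase subunit mt:CoI had 338 ± 28.4 counts per 1000 mt:lrRNA counts in control, 306 ± 26.5 with cisplatin, 267 ± 23.9 with TiO2 and 232 ± 18.4 with both substances (SD, n = 3). mt:Cyt-b had 150 ± 12.7, 134 ± 6.22, 124 ± 5.21 and 109 ± 5.07 in the same order. The complex I subunit mt:ND5, the one messenger whose mean was higher in cisplatin, had 28.8 ± 4.36, 30.2 ± 1.61, 26.2 ± 2.92 and 26.0 ± 2.90. Of the 13 messengers mt:ND6 had the lowest proportion of its control mean in each treated group, at 59.4% for cisplatin, 25.3% for TiO2 and 46.0% for both.

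Gene by gene, no mitochondrial gene passed the test against other libraries. A quasi-likelihood model (edgeR) was fitted to all 11060 genes that passed the filter on low counts, and 17 of the 37 mitochondrial genes were among them: all 13 protein genes, both ribosomal RNAs and the tRNA genes for Ile and Tyr. At an adjusted p below 0.05, 0 of the 17 were called in each of the 6 contrasts, against 0.0% of all genes. The fold changes below are therefore values that did not pass.

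Against control, all 17 genes were lower in cisplatin, with a median log2 fold change of -0.74 (all tested genes, -0.03). All 17 were lower in TiO2, with a median of -0.85 (all genes, -0.08). In the combination 15 were lower, with a median of -0.42 (all genes, 0.05). At an unadjusted p below 0.05, 7 were lower in cisplatin, where 15.0% of all genes were; 9 were lower in TiO2, where 12.8% were; and 0 in the combination, where 3.82% were.

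Much of this rested on control replicate 1. Without that library the medians became -0.18 for cisplatin, -0.28 for TiO2 and 0.22 for the combination, in which 11 of 17 genes were then higher. Unadjusted p was then below 0.05 and lower for 0 of the 17 genes in cisplatin, against 4.81% of all genes, and for 3 in TiO2, against 5.78%. With the counts scaled to the mitochondrial total in place of TMM, which moved the median of all genes to 0.33, 0.32 and 0.03 in the 3 comparisons, the medians of the 17 genes were -0.21, -0.21 and -0.21.

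**Figure D4:**
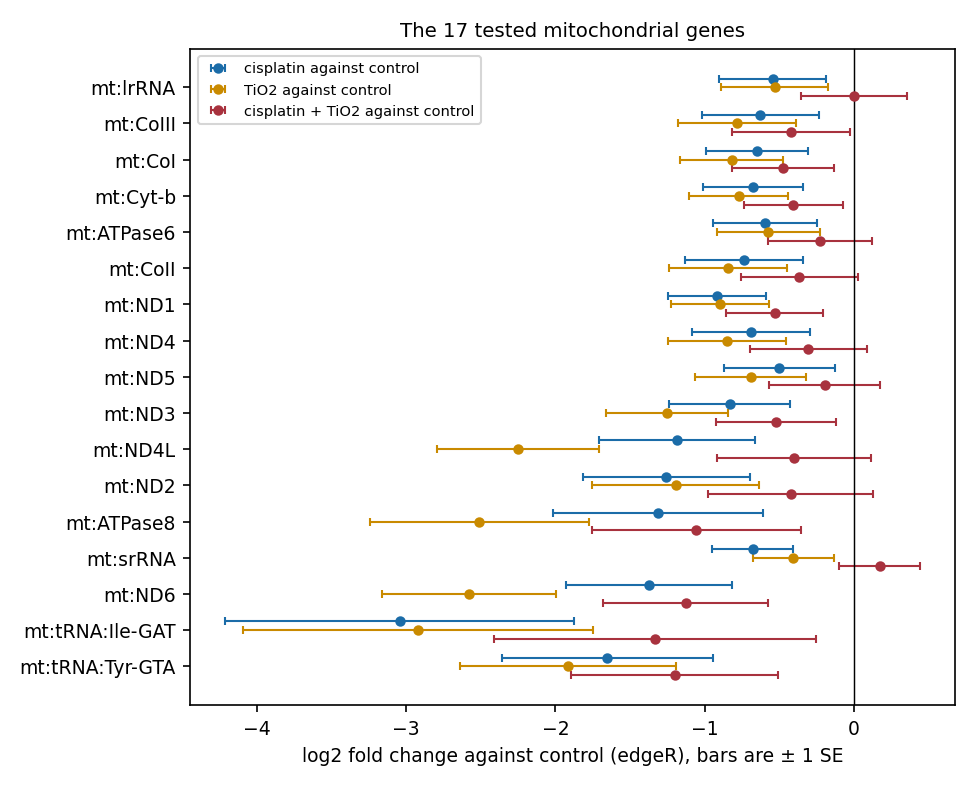
log2 fold change against control of the 17 tested mitochondrial genes in the 3 treated groups, from edgeR; bars are ± 1 SE. Nearly all points lie below 0, and mt:ND6, mt:ND4L and mt:ATPase8 lie lower in TiO2 than the other protein genes; no point passed an adjusted p of 0.05.

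The combination was also compared with each substance alone. All 17 genes were higher than in cisplatin, with a median log2 fold change of 0.37, and all 17 were higher than in TiO2, with a median of 0.54. At an unadjusted p below 0.05, 1 gene (mt:srRNA) was higher than in cisplatin, against 13.4% of all genes, and 2 (mt:ND4L and mt:ND6) were higher than in TiO2, against 6.58%. Without combination replicate 2 the medians fell to 0.07, with 13 of 17 higher, and to 0.29. The interaction, which is the effect of cisplatin in the presence of TiO2 minus its effect without, was positive for all 17 genes, with a median of 1.26 on the log2 scale (all genes, 0.07). At an unadjusted p below 0.05 it was positive for 10 of them, against 26.7% of all genes. Its median was 0.61 with control replicate 1 and combination replicate 2 both left out.

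The ranges of the groups were also compared without a model. The cisplatin range lay wholly below the control range for 4 of the 17 genes, mt:ND1, mt:ND6, mt:srRNA and the tRNA gene for Tyr, and 15.0% of all genes did the same. The TiO2 range lay below for 5 genes, mt:ND1, mt:ND3, mt:ND4L, mt:ND6 and the tRNA gene for Tyr, against 14.9% of all genes. The combination range lay above that of cisplatin for 3 genes (mt:ND2, mt:ND4L and mt:srRNA), against 7.57%, and above that of TiO2 for 4 genes (mt:lrRNA, mt:ATPase8, mt:ND4L and mt:ND5), against 4.23%. The combination range lay below that of control for 0 of the 17 genes, against 5.06% of all genes, and above it for 0, against 1.76%.

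The ribosomal RNAs themselves varied as follows. mt:lrRNA stood at 95953, 44196 and 32554 CPM in the controls and at 32567, 45693 and 40057 CPM in cisplatin. It stood at 39046, 42425 and 37963 CPM in TiO2 and at 44623, 75417 and 52792 CPM in the combination. The control range enclosed every other group. Its log2 fold change was -0.55 ± 0.357 in cisplatin (SE, edgeR adjusted p = 0.322), -0.53 ± 0.357 in TiO2 (edgeR adjusted p = 0.342) and 0.00 ± 0.356 in the combination (edgeR adjusted p = 0.999). Without control replicate 1 these became 0.03, 0.04 and 0.57.

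mt:srRNA stood at 75.6, 47.1 and 46.2 CPM in the controls and at 34.8, 40.7 and 30.1 CPM in cisplatin. It stood at 60.2, 31.8 and 35.4 CPM in TiO2 and at 62.9, 67.5 and 59.8 CPM in the combination. All cisplatin libraries were below all controls and below all combination libraries. Its log2 fold change was -0.68 ± 0.272 in cisplatin (edgeR adjusted p = 0.270), -0.41 ± 0.271 in TiO2 (edgeR adjusted p = 0.340) and 0.17 ± 0.270 in the combination (edgeR adjusted p = 0.952). Without control replicate 1 these became -0.41, -0.15 and 0.43, and without TiO2 replicate 1 the TiO2 value became -0.74.

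Among the complex I subunits, mt:ND1, a membrane subunit and the highest of them per length, had 4211, 1982 and 1625 CPM in the controls, 1307, 1474 and 1355 CPM in cisplatin, 1139, 1538 and 1520 CPM with TiO2 and 1413, 2271 and 1719 CPM with both. Both single treatments thus lay below the controls, and the combination overlapped them. For complex III, mt:Cyt-b had 13425, 6457 and 5348 CPM in the controls, 4588, 5890 and 5289 in cisplatin, 4913, 5394 and 4462 in TiO2 and 4620, 8487 and 5916 in the combination. Every group overlapped every other for mt:Cyt-b.

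In complex IV, mt:CoIII had 23173, 9586 and 7280 CPM in the controls and 7389, 10099.7 and 8436 CPM in cisplatin, with 7078, 8867 and 7282 CPM for TiO2 and 7168, 13656 and 9068 CPM for the combination. mt:CoII, which carries the first copper centre that receives electrons, had 6595, 2954 and 2202 CPM in the controls and 2013, 2551 and 2483 CPM in cisplatin, with 1972, 2521 and 2039 CPM for TiO2 and 1980, 4408 and 2728 CPM for the combination. In complex V, mt:ATPase6, a subunit of the proton channel, had 7010, 2978 and 2510 CPM in the controls and 2386, 3280 and 2594 CPM in cisplatin, with 2630, 3160 and 2607 CPM for TiO2 and 2832, 4324 and 3514 CPM for the combination. For these 3 genes control replicate 1 was the highest of the 12 libraries and combination replicate 2 the next, and all groups overlapped.

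The 3 protein genes with the smallest unadjusted p were mt:ND6, mt:ND4L and mt:ATPase8, each in TiO2 against control, and all 3 are among the 5 lowest of the 15 genes per length. mt:ND6 had 22.0, 9.00 and 5.96 CPM in the controls and 4.69, 5.15 and 4.37 CPM in cisplatin. TiO2 libraries had 3.45, 1.29 and 1.42 CPM, and those of the combination 3.43, 8.56 and 4.91 CPM. TiO2 replicates 2 and 3 were the lowest libraries, with 42 and 38 counts. The TiO2 log2 fold change of mt:ND6 was -2.58 ± 0.581 (edgeR unadjusted p = 0.00113, adjusted p = 0.277). It was -1.88 without control replicate 1 and -3.17 without TiO2 replicate 1.

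mt:ND4L, a small membrane subunit of complex I, had 149, 39.9 and 40.2 CPM in the controls and 34.1, 47.1 and 19.6 CPM in cisplatin. TiO2 libraries had 22.6, 10.5 and 15.1 CPM, and those of the combination 51.5, 61.6 and 60.1 CPM. The TiO2 libraries lay below the controls and below the combination. Its log2 fold change in TiO2 was -2.25 ± 0.542 (edgeR adjusted p = 0.277), which became -1.33 without control replicate 1 and -2.57 without TiO2 replicate 1. The log2 fold change of the combination against TiO2 was 1.84 ± 0.535 (edgeR adjusted p = 0.617).

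mt:ATPase8, a small membrane subunit of the ATP synthase, had 52.0, 14.2 and 8.11 CPM in the controls and 9.66, 11.6 and 8.59 CPM in cisplatin. TiO2 libraries had 8.40, 1.60 and 3.02 CPM, and those of the combination 8.54, 15.7 and 11.5 CPM. Its TiO2 log2 fold change was -2.51 ± 0.735 (edgeR adjusted p = 0.282), with TiO2 replicate 1 inside the control range. It was -1.38 without control replicate 1 and -3.41 without TiO2 replicate 1. The interaction values were 2.83 ± 0.790 for mt:ND6, 3.03 ± 0.748 for mt:ND4L and 2.77 ± 1.00 for mt:ATPase8 (edgeR adjusted p = 0.129 for each). Without control replicate 1 they were 2.12, 2.11 and 1.64 in that order, and without TiO2 replicate 1 they were 3.41, 3.34 and 3.66.

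DESeq2, run on the same counts, called these same 3 genes lower in TiO2, at adjusted p-values of 0.00272 for mt:ND6, 0.00739 for mt:ND4L and 0.0278 for mt:ATPase8, where it called 2.62% of all genes. It called 5 genes in the interaction, these 3 with mt:srRNA and the tRNA gene for Ile, where it called 14.6% of all genes. It called no mitochondrial gene in cisplatin, the combination against control, the combination against cisplatin or the combination against TiO2, where it called 1.86%, 0.425%, 0.325% and 0.0271% of all genes. In the authors' deposited tables, 30 mitochondrial genes had a value in each comparison, of which 28 were lower for cisplatin, 29 for TiO2 and 27 for the combination. The authors' deposited table for TiO2 has 4 of them (mt:ATPase8, mt:ND3, mt:ND4L and mt:ND6) below an adjusted p of 0.05, where 4.03% of all genes are, and the other 2 deposited tables have 0.

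Each of these 3 genes was also set against a neighbour on the genome, a ratio chosen after the values were seen and therefore given with no test. In each pair the genes lie side by side on the same strand with no tRNA gene between them. The counts of a pair therefore need not come from separate RNAs, and the ratio also depends on how reads spanning both genes were counted. mt:ATPase8 had 0.506 and 1.16 counts per 1000 mt:ATPase6 counts in TiO2 replicates 2 and 3, against 3.02 to 7.41 in the other 10 libraries. mt:ND6 had 0.239 and 0.317 counts per 1000 mt:Cyt-b counts in the same 2 libraries, against 0.702 to 1.64 elsewhere. mt:ND4L had 9.68 and 17.7 counts per 1000 mt:ND4 counts in them, with cisplatin replicate 3 at 17.9, TiO2 replicate 1 at 25.8 and the rest from 32.2 to 56.4. TiO2 replicates 2 and 3 were therefore the lowest libraries for all 3 ratios. Nuclear protein genes shorter than 600 bases summed to 15729 and 16789 CPM in these 2 libraries, against 11791 to 28194 CPM elsewhere, and the part of transcript length in these ratios was not tested.

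**Figure D5:**
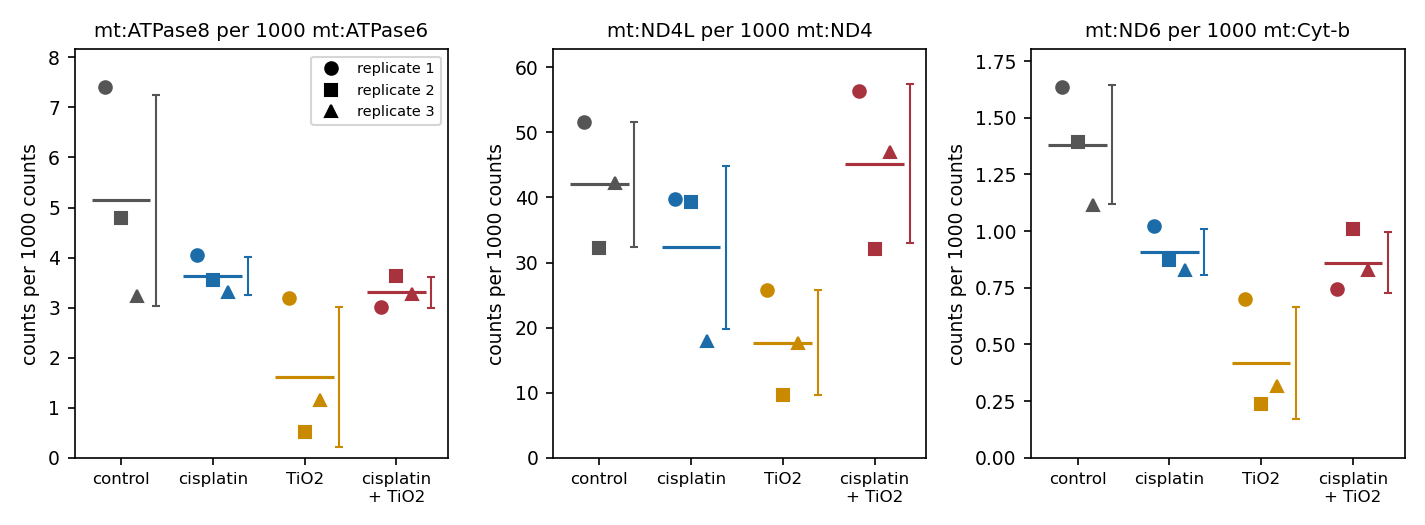
Counts of mt:ATPase8 per 1000 mt:ATPase6 counts, of mt:ND4L per 1000 mt:ND4 counts and of mt:ND6 per 1000 mt:Cyt-b counts, by group. Symbols are replicate libraries, horizontal lines group means and vertical bars ± 1 SD. TiO2 replicates 2 and 3 are the lowest libraries in each panel (0.506 and 1.16 in the first).

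Nuclear genes that maintain mitochondrial RNA and DNA were read from the same model. Of 32 such genes listed in the count table, 29 were tested, and edgeR called 0 in each of the 6 contrasts (0.0% of all genes). Against control, 23 of 29 were higher in cisplatin (median log2 fold change 0.21), 24 in TiO2 (median 0.23) and 20 in the combination (median 0.06), beside medians of -0.03, -0.08 and 0.05 for all tested genes. At an unadjusted p below 0.05 there were 1, 2 and 2 genes in either direction, in that order, against 18.3%, 16.5% and 7.09% of all genes. Libraries of a group differed: the genes of nuclear control (srl, Ets97D, ewg, Pink1 and park) summed to 318, 501 and 776 CPM in control replicates 1, 2 and 3. They summed to 847, 328 and 679 CPM in the combination, 758 to 840 CPM in cisplatin and 772 to 813 CPM in TiO2. The genes of RNA processing and stability varied less, at 831 to 888 CPM in control. Fits with a library left out are not given for these genes. The 5 tested genes listed under DNA copying were PolG1, mtDNA-helicase, mtSSB, Top3alpha and the protease gene Lon. All 5 were higher against control in each group, with medians of 0.56, 0.48 and 0.29. The last median is the value of Lon, and the 5 genes ran from 0.07 to 0.50 in the combination. PolG1, the catalytic subunit of the mitochondrial DNA polymerase, had log2 fold changes of 0.82 ± 0.338 in cisplatin (edgeR adjusted p = 0.270) and 0.88 ± 0.339 in TiO2 (edgeR adjusted p = 0.300). PolrMT, the mitochondrial RNA polymerase, had 0.21 ± 0.181 and 0.31 ± 0.181, and TFAM, which packages mitochondrial DNA, 0.20 ± 0.148 and 0.09 ± 0.148. scu, a subunit of the RNase that frees the 5′ ends of mitochondrial tRNAs, had -0.28 ± 0.122 in TiO2 (edgeR adjusted p = 0.300) and -0.39 ± 0.122 in the combination (edgeR adjusted p = 0.600). DESeq2 called scu alone of these genes, lower in the combination against control (adjusted p = 0.00977) and against cisplatin (adjusted p = 0.0452). The ovarian germline markers were also higher in the single treatments, at 1835 to 1898 CPM in cisplatin and 1552 to 1886 CPM in TiO2 against 960 to 1523 CPM in control, and their part in these values was not tested.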

How the data were processed

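Stranded mRNA libraries from 12 whole-body RNA samples were analysed. The authors deposited raw counts per gene. Per the submitters' processing notes, FastQC, Trimmomatic, SAMtools, HTSeq and BWA were used. Versions, genome build and strand setting are not given in the sources used here, and per the file headers the columns are those of a featureCounts table. The authors also deposited 3 comparison tables with a log2 fold change with its error, a score (fold change over error), and p-values, whose columns are those of DESeq2 results per the file headers.

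Counts were tested with edgeR 4.0.16 (R 4.3.3, filterByExpr, TMM, glmQLFit and glmQLFTest) in 1 model of 4 group means over 12 libraries, with Benjamini-Hochberg adjustment over all 11060 genes tested and a threshold of 0.05; DESeq2 1.42.0 was an alternative. CPM use TMM-scaled library sizes, and CPM per kb divide by the length in the count table. Ratios of summed counts, 1 value per library, were tested on the log2 scale with an exact permutation test over every division into 4 sets of 3. The procedures were tested on simulated data. The simulated counts for edgeR had the same spread for all genes and no deviating library, so they do not measure its power in these data. A count of 0 allows up to 3 counts; this covers counting error alone, because PCR copies of a molecule were not marked and may be counted more than once.

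The members, lists and ratios were chosen with earlier results of these data known. Values in every library are printed for the ribosomal RNAs and the highest and lowest gene per length of each complex, and fitted changes for the ribosomal RNAs and the 3 other genes with the smallest unadjusted p in any contrast; the values of mt:ND4L follow from the second part, and mt:CoI, mt:ND5 and the nuclear genes named were chosen after their values were seen. EndoG and nos, 2 genes of the lists, were not analysed here.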

Additional observations from a re-analysis of the deposited data

How the results depend on the processing

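The rRNA over mRNA separation (87.81% of variance between groups) lay between 86.48% and 92.29% with any 1 library left out and passed each time. It was 73.56%, no longer past the threshold (exact permutation test, adjusted p = 0.0614), when only minus-strand messengers were counted, an alternative chosen after seeing the data. Also chosen then, plus-strand messengers alone gave 87.52% and messengers without mt:CoI and mt:CoIII 86.49%, and both passed. Same-numbered libraries did not deviate together in a common direction (correlations of -0.74 to 0.47). Such mixed values cannot exclude that the numbers pair libraries, and the labels do not say that they do. With a replicate block the separation was 90.01%, and 0 mitochondrial genes were called in any contrast. DESeq2 called 5 mitochondrial genes in the interaction, against 14.6% of all genes, and 3 in TiO2 against control, against 2.62%. For both contrasts edgeR called 0. Leaving out 1 library gave 0 to 7 calls in the interaction: 7 without control replicate 3, where 15.5% of all genes were called, and 4 without combination replicate 1, where 25.0% were. The other counts stayed at 0. For the log2 fold changes of mt:lrRNA, scaling to the mitochondrial total gave 0.060 in cisplatin and 0.13 in TiO2, and leaving out both control replicate 1 and combination replicate 2 gave 0.0010 and 0.015. With 1 library left out, mt:lrRNA ran from -0.82 to 0.030 in cisplatin, -0.81 to 0.038 in TiO2 and -0.28 to 0.57 in the combination, where omitting the filter gave -0.035. mt:srRNA in TiO2 was 0.12 when scaled to the mitochondrial total. mt:ND4L in the combination was 0.47 with both libraries left out and -0.71 to 0.52 with 1 left out, and mt:ATPase8 there -1.47 to 0.079. The median over the 17 genes was -0.050 for the combination against cisplatin when scaled to the mitochondrial total, and -0.72 to 0.22 for the combination against control with 1 library left out. The causes were not tested, and none of these fold changes passed in the unaltered model. With 3 libraries a group, pairwise exact tests cannot go below 0.1, and the tRNA counts are too low to show differences between most tRNA genes.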
